A study of Mus musculus with 10 samples.

Results

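Long noncoding RNA genes that were expressed in the P14 mouse lung numbered 187. They are the genes of the deposited table that carry the biotype lincRNA, lie on an autosome and reach a mean of at least 1 FPKM over the 10 lungs, without the imprinted genes H19 and Meg3. FPKM gives a gene's level as sequenced fragments for every kilobase of transcript, corrected for library size. The table lists 54532 genes, of which 5559 are lincRNA genes and 4913 of those are autosomal. Of the autosomal ones, 2407 were listed at 0 in every lung and another 2319 stayed under the threshold. The genes just below it were 1700001L05Rik at 0.989 and Gm13749 at 0.994 FPKM, and those just above it were Gm26765 at 1.03 and D830026I12Rik at 1.04 FPKM. The genes were thus chosen by their mean FPKM, so their levels are given as a description and only the difference between the groups was tested.

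Long noncoding RNAs are transcribed and usually spliced like messenger RNAs but encode no known protein. The genes here were taken by their biotype label alone, and whether any of them encodes a protein was not checked. Some build nuclear bodies, as Neat1 does for paraspeckles, or gather in them, as Malat1 does in nuclear speckles. Others carry small nucleolar RNAs or microRNAs in their introns or exons, bind proteins or microRNAs in the cytoplasm, or start beside the gene of a transcription factor and are transcribed together with it.

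The lungs came from wild-type C57/BL6 pups of either sex. At P7 the IncPBF group received a needle puncture from the abdominal aorta into the inferior vena cava, a fistula that raises pulmonary blood flow, while the sham group had the same operation without the puncture. At P14 lung tissue was taken from 5 pups per group, and its RNA was sequenced in bulk. In the table the IncPBF columns are named differently from the titles of the samples, and they were taken as the IncPBF group because every other column is named sham.

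The IncPBF libraries held 16103423 to 20318525 fragments on genes and the sham libraries 18171494 to 19400575. Xist, the X-linked long noncoding RNA that silences an X chromosome in female cells, read 52.4 to 66.5 FPKM in IncPBF lungs 2 to 5 and 0.0144 in IncPBF lung 1, against at most 0.0770 in the sham lungs. Ddx3y, a Y-linked gene, read 18.6 FPKM in IncPBF lung 1 and 21.8 to 24.6 in the sham lungs, and at most 0.00926 in the other IncPBF lungs. Sex-linked expression therefore separated the groups in all lungs but 1, and the surgery and the sex of the pups can hardly be told apart in the comparison. Sham lung 5 stood apart in Scgb1a1, a secretory airway cell gene, with 128.5 FPKM against 4802 to 11743 in the others. In bulk RNA, fewer cells of a type and less RNA per cell cannot be told apart.

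The expressed long noncoding RNA genes lie on all 19 autosomes and were mostly of low level. Of the 187, 7 reached 20 FPKM, 15 reached 10, 31 reached 5, and 89 stayed under 2. Provisional names were common, with 100 beginning in Gm and 47 ending in Rik. The genes were short, with a median length of 1439 bases against 3786 over all genes tested. Only 38 had at least 100 fragments in every lung, and the median of the lowest count over the lungs was 40 fragments against 330 over all genes tested. Summed per lung, they reached 834 to 862 FPKM after IncPBF and 813 to 967 FPKM after sham surgery, of which Malat1 took 6.88 to 16.4%. By fragments they made up 0.248 to 0.339% of each library.

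Between IncPBF and sham, 18 of the 187 genes were higher and 19 were lower at an adjusted p under 0.05, from limma fitted over all 15388 genes with a mean of at least 0.5 FPKM. That is 19.8% of the long noncoding genes, against 32.3% of all genes tested. By direction, 9.63% were higher against 16.1% of all genes tested, and 10.2% were lower against 16.2%. The 5 lungs of one group lay entirely beyond the other 5 for 24 of them (12.8%), against 23.2% of all genes tested. Of the 187, 11 were higher without overlap, against 1845 of the 15388 genes tested (12.0%), and 13 were lower, against 1718 (11.2%). A change of at least 2-fold passed the test for 6 of the 187, against 471 of the 15388 (3.06%). The log2 fold changes ranged from −2.21 to 2.75, with a median of −0.03 beside 0.01 over all genes tested. Scaling each lung to an equal total on genes moved the median of all genes by 0.08 on the log2 scale and turned the split of 18 higher and 19 lower into 27 and 11.

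**Figure D1:**
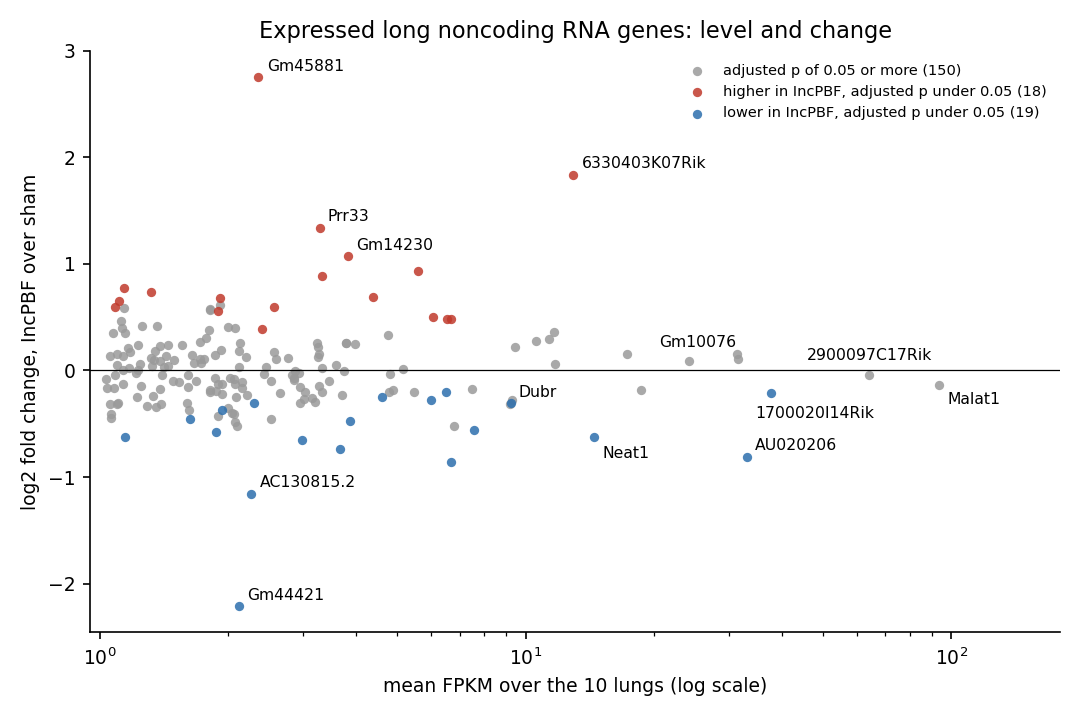
Mean FPKM over the 10 lungs (horizontal, log scale) against the log2 fold change of IncPBF over sham (vertical) for the 187 long noncoding RNA genes, each point a gene, coloured by the test. The largest changes, from −2.21 to 2.75, belong to genes below 20 FPKM, and the most abundant genes, Malat1 and 2900097C17Rik, did not pass the test.

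The share that passed the test went with the level. Among the genes from 1 to under 5 FPKM, 24 of 156 passed (15.4%), against 30.2% of 4294 protein-coding genes in the same range. Among those of at least 5 FPKM, 13 of 31 passed (41.9%), against 41.1% of 7827 protein-coding genes. Equal FPKM did not mean equal counts. From 1 to under 5 FPKM the median length was 1234 against 4732 bases, and the median of the lowest count was 30.5 against 158 fragments. There the median coefficient of variation was 18.6% in IncPBF and 22.2% in sham lungs, against 10.8% and 13.1% for the protein-coding genes. The spread between lungs of a group was wider for the long noncoding genes, with a median coefficient of variation of 17.9% in IncPBF and 20.6% in sham lungs against 9.12% and 11.8% over all genes tested, and a median standard error of the log2 fold change of 0.17 against 0.10. Among those that passed, the median size of the log2 fold change was 0.62, against 0.41 for all genes that passed. A larger standard error asks for a larger change to pass, so this difference follows in part from the test. Passed or not, the quartiles of the log2 fold change were −0.21 and 0.22 for the long noncoding genes and −0.19 and 0.22 for all genes tested. Noncoding genes of the other classes in the table, such as antisense and processed transcripts, had 28 higher and 28 lower of 319. That is 8.78% in each direction, against 16.1% higher and 16.2% lower over all genes tested.

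**Figure D2:**
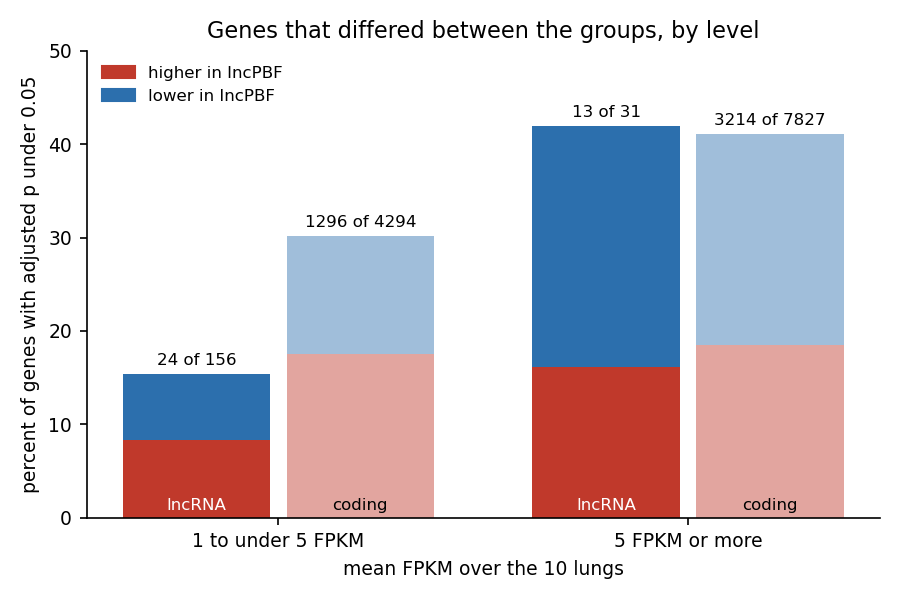
Percent of genes with an adjusted p under 0.05 (vertical, from 0), split by direction, for long noncoding RNA genes (full colour) and protein-coding genes (pale) in ranges of mean FPKM (horizontal). At 1 to under 5 FPKM the bars reach 15.4% and 30.2%, and at 5 FPKM or more 41.9% and 41.1%.

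Malat1 is a long nuclear RNA concentrated in nuclear speckles, and it was the most abundant of the set (chr19:5795690-5802672, minus strand). It read 97.2, 90.3, 99.2, 92.9 and 57.4 FPKM in IncPBF lungs 1 to 5 and 78.3, 61.0, 79.1, 132 and 151 in sham lungs 1 to 5. IncPBF lung 5 and sham lung 2 were the low ones and sham lungs 4 and 5 the high ones, so the groups overlapped. The means were 87.4 ± 17.1 and 100 ± 38.9 FPKM (SD, n = 5 each), and the log2 fold change of −0.14 ± 0.25 (SE) did not pass the test, with an adjusted p of 0.699 from limma.

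Neat1, the RNA around which paraspeckles assemble, lies beside Malat1 on the same strand of chromosome 19 (chr19:5824708-5845478). It read 12.3, 10.1, 12.7, 11.8 and 9.61 FPKM in the IncPBF lungs and 17.7, 13.5, 22.6, 19.6 and 15.0 in the sham lungs. Every IncPBF lung was below every sham lung. The fall was −0.63 ± 0.13 on the log2 scale (adjusted p = 0.00508 by limma), on 3946 to 8850 fragments per lung. The nearest protein-coding gene, Frmd8, was also lower by a log2 fold change of −0.30 (adjusted p = 0.0150).

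Genes of paraspeckle proteins went the other way. Of 15 such genes, 10 were higher in IncPBF lungs and 0 lower, where 16.1% of all genes tested were higher. Their median log2 fold change was 0.27 beside 0.01 over all genes tested. Rbm12 rose by 0.52, while the core paraspeckle genes Pspc1, Sfpq and Nono rose by 0.38, 0.35 and 0.35. Nono is X-linked. Of 18 genes of nuclear speckles and splicing, 7 were higher and 0 lower, with a median of 0.15, beside the same 16.1% higher over all genes tested. With log2 Xist as a covariate, 1 of the paraspeckle genes and 2 of the speckle and splicing genes passed the test. In that fit the group difference rests on IncPBF lung 1, which also helped to make these calls, so a kept direction is no independent check. The 10 and the 7 genes kept their direction there, with median log2 fold changes of 0.33 against 0.35 and 0.40 against 0.36 and larger standard errors. Neat1 itself had a log2 fold change of −0.54 that no longer passed the test (adjusted p = 0.231).

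Likeness to Malat1 and Neat1 from lung to lung was measured by the Pearson correlation of log2 levels within groups over the 10 lungs, as a description. The closest to Malat1 were CT030736.1 (r = 0.784), CT030636.2 (r = 0.777), Gm38102 (r = 0.752), Carmn (r = 0.715) and CT030636.1 (r = 0.689). The closest to Neat1 were AI480526 (r = 0.934), Gm16907 (r = 0.881), Gm26705 (r = 0.845), 9030622O22Rik (r = 0.819) and Gm21781 (r = 0.814). Malat1 and Neat1 themselves had r = 0.284, and all these values share the libraries and their depth.

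2900097C17Rik, the mouse Norad gene, is a cytoplasmic RNA known for binding Pumilio proteins (chr2:156388065-156392979, minus strand). It read 63.8, 65.3, 57.8, 58.9 and 70.5 FPKM in the IncPBF lungs and 68.8, 65.6, 62.3, 64.3 and 64.3 in the sham lungs. The sham values fell inside the IncPBF range, and the log2 fold change was −0.04 ± 0.06 (adjusted p = 0.622).

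1700020I14Rik, the mouse Cyrano gene (Oip5os1), is known for driving the decay of miR-7. It read 35.6, 37.4, 31.8, 32.6 and 38.1 FPKM in the IncPBF lungs and 45.6, 39.6, 37.2, 38.8 and 41.7 in the sham lungs. The ranges overlapped between 37.2 and 38.1 FPKM. The log2 fold change of −0.21 ± 0.07 passed the test at an adjusted p of 0.0419, which became 0.128 with an equal total per lung and lay between 0.0628 and 0.0999 without IncPBF lung 1, 3 or 4 or sham lung 1, 2 or 5. Its neighbour Oip5, on the other strand, was higher by 0.52 (adjusted p = 0.0431).

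The other genes of at least 20 FPKM besides AU020206 did not pass the test. Bvht, a mouse RNA known from cardiac lineage commitment, read 33.3 ± 6.99 FPKM in IncPBF and 29.4 ± 2.66 in sham lungs, with a log2 fold change of 0.15. Tmem250-ps shares exon sequence with 1810012K08Rik, had the smallest coefficient of variation of the 187 genes at 4.51%, and had a log2 fold change of 0.09. Gm10076 read 31.5 ± 15.5 and 31.7 ± 18.1 FPKM. It is 98.956% identical over its whole length to a transcript of the ribosomal protein gene Rpl41, so its fragments cannot be assigned with certainty. For the same reason Gm28901 and Gm47467, near-copies of parts of Hnrnpf and Zfp825, are uncertain. 1300002E11Rik also matches a transcript of Map3k13. It overlaps Map3k13 on the same strand with starts 28 bases apart, so that match can be the shared locus and not a copy. Its fragments are uncertain as well.

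In all, 36 of the 187 genes share exon sequence with another gene, 1300002E11Rik and Gm28901 among them. Whether the counting used strand is not given in the sources used here. Of those 36, 3 passed the test (8.33%), all higher. Of the 151 without a shared exon, 15 were higher (9.93%) and 19 lower (12.6%). Over all genes tested, 16.1% were higher and 16.2% lower.

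Among the genes that rose, Gm45881 had the largest change (chr9:117708192-117872584, minus strand). It read 4.50, 4.33, 4.40, 4.15 and 3.17 FPKM in the IncPBF lungs and 0.216, 0.513, 1.34, 0.506 and 0.444 in the sham lungs. The groups were far apart, with sham lung 3 the highest of its group. The log2 fold change was 2.75 ± 0.32 (adjusted p = 0.000118). The transcript is only 517 bases long, so these levels stand on 2 to 45 fragments per lung. Rbms3, the nearest protein-coding gene at a distance of 78279 bases, had a log2 fold change of −0.03.

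6330403K07Rik was the most abundant of the genes that rose (chr11:71031941-71033513, minus strand). It read 21.6, 19.4, 19.6, 20.6 and 19.8 FPKM in the IncPBF lungs and 3.43, 5.61, 7.40, 6.09 and 6.15 in the sham lungs. The IncPBF lungs lay close together and all above the sham lungs. The log2 fold change was 1.84 ± 0.16 (adjusted p = 2.37e-05) on 92 to 623 fragments per lung. Mis12, a kinetochore gene on the other strand 4570 bases away, was higher by 0.20 (adjusted p = 0.0209).

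Prr33, counted as noncoding only by its lincRNA label, overlaps the bodies of both Tnnt3 and Lsp1. It lies on the opposite strand of chromosome 7 and shares no exon with them. It read 4.52, 4.77, 5.12, 5.63 and 3.59 FPKM in the IncPBF lungs and 1.52, 1.27, 2.69, 1.83 and 1.91 in the sham lungs, so the groups did not overlap (log2 fold change 1.34 ± 0.18, adjusted p = 0.000318). Tnnt3, which encodes fast skeletal muscle troponin T, had a log2 fold change of 1.17 that did not pass the test (adjusted p = 0.0817). Cardiac muscle markers summed to 33.9 to 101 FPKM after IncPBF and 8.85 to 47.6 FPKM after sham surgery. Of the 6 tested singly, 0 were higher and 0 lower. Actc1, the most abundant of them, read 51.5 ± 20.2 against 29.5 ± 14.9 FPKM (adjusted p = 0.139 by limma). The part of muscle tissue in the rise of Prr33 was not tested. Lsp1, an actin-binding protein gene named here after its values were seen, was higher as well, at 27.8 ± 1.71 against 13.97 ± 1.59 FPKM (adjusted p = 1.5e-05).

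Starts within 1 kb of the nearest protein-coding gene on the opposite strand belong to 35 of the 187 genes. Of these, 4 were higher and 2 lower, or 17.1% against 19.8% of the 187 and 32.3% of all genes tested. The lower ones were Gm43672, 510 bases from Tbl1xr1, and 4930516B21Rik, 74 bases from Exog. 4930516B21Rik fell by −0.27 while Exog rose by 0.36 (adjusted p = 0.0413 and 0.0130 by limma). Such starts beside the gene of a transcription factor also occurred without a rise. Gm43050, 748 bases from Tbx5, had a log2 fold change of 0.06 and Tbx5 one of −0.09, and neither passed the test. Gm17586, 168 bases from Mafg, had 0.03, while Mafg was lower by −0.23. Several of the rising genes do start beside the gene of a developmental transcription factor, so that both are transcribed outward from one promoter region. Gm14230 starts 115 bases from Tgif2, Gm20554 starts 256 bases from Irx2, and 1700018A04Rik starts 24 bases from Foxf2. The promoter windows from RefSeq on GRCm38.p6 hold 250 bases before a gene's start and 50 from it. Those of Tgif2 and Foxf2 are shown because the start of the long noncoding gene falls inside each. For Gm20554 its own window is shown, which holds its start by construction, and the start of Irx2, 256 bases away, lies outside it. AU020206, the most abundant of the falls without overlap, is added for contrast. Capitals mark the GC box GGGCGG and the CCAAT box CCAAT on either strand.
1700018A04Rik: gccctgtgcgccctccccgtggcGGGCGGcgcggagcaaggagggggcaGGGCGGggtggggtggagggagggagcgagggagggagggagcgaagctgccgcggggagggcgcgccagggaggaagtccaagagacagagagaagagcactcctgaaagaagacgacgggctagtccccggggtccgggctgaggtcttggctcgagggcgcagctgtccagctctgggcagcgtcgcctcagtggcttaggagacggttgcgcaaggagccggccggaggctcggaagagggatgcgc
Gm20554: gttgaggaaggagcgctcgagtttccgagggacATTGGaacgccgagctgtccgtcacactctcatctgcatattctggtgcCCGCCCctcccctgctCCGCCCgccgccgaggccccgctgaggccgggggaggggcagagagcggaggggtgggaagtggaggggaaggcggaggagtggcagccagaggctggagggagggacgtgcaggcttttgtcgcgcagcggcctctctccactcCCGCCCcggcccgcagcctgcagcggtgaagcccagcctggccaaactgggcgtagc
Gm14230: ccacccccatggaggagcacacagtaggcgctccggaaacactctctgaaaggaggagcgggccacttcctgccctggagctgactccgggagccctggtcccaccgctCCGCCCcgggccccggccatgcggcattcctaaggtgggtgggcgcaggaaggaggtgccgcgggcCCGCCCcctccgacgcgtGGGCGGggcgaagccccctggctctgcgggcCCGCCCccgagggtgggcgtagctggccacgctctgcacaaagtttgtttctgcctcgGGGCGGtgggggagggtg
AU020206: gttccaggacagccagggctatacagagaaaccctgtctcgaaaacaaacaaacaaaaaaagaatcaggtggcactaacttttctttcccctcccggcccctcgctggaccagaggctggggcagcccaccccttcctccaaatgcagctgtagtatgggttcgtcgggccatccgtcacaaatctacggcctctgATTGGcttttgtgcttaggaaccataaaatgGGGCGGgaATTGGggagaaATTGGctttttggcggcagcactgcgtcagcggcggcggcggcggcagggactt

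The window of the Foxf2 pair (chr13:31625566-31625865, plus strand, read toward Foxf2) holds 27 CpG and 71.3% G and C, with the start of 1700018A04Rik at base 227 and that of Foxf2 at base 251. The Gm20554 window (chr13:72628515-72628814, minus strand) holds 24 CpG, 3 GC boxes and 1 CCAAT box. The window of the Tgif2 pair (chr2:156839757-156840056, plus strand) holds 25 CpG and 5 GC boxes, with the start of Gm14230 at base 136. The AU020206 window (chr7:75782071-75782370, minus strand) holds 15 CpG, 1 GC box and 3 CCAAT boxes, with the start in the table at base 272. Over all 32851 windows of this kind the medians were 7 CpG and 52.7% G and C, 35.7% held a GC box and 37.4% a CCAAT box. The TATA box TATAAA, the E-box motif CACGTG, the cyclic AMP response element TGACGTCA and a palindromic glucocorticoid response element were searched on both strands and matched none of the 4 windows. Over all windows they matched 13.6%, 7.15%, 1.79% and 0.00913%. These matches describe the letters and show no binding.

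Gm14230 read 5.29, 5.86, 5.08, 4.08 and 5.78 FPKM in the IncPBF lungs and 2.61, 2.39, 1.99, 2.01 and 3.18 in the sham lungs. All IncPBF lungs were above the sham lungs, with a log2 fold change of 1.08 ± 0.14 (adjusted p = 0.000234). Tgif2, a homeodomain repressor in the transforming growth factor β pathway, rose from 1.08 to 1.45 FPKM (log2 fold change 0.40, adjusted p = 0.0359).

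Gm20554 read 2.49, 2.00, 2.88, 2.19 and 2.35 FPKM in the IncPBF lungs and 1.56, 1.15, 1.42, 1.53 and 1.54 in the sham lungs, again without overlap (0.68 ± 0.12, adjusted p = 0.00152). Irx2, an Iroquois homeobox gene, rose by 0.62 to 26.2 ± 2.41 FPKM from 17.04 ± 1.94 (adjusted p = 0.000429).

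1700018A04Rik read 1.46, 1.37, 1.59, 1.15 and 1.27 FPKM in the IncPBF lungs and 0.661, 0.932, 1.10, 0.670 and 0.872 in the sham lungs (0.65 ± 0.16, adjusted p = 0.00971). Foxf2, a forkhead factor of lung mesenchyme, rose by 0.58 (adjusted p = 0.00118). Gm11377 lies within the body of 1700018A04Rik, 3773 bases from Foxq1, another forkhead gene. It read 5.48, 5.73, 4.77, 6.05 and 4.96 FPKM in the IncPBF lungs and 2.41, 3.49, 4.12, 3.83 and 2.91 in the sham lungs. It rose by 0.69 ± 0.13 (adjusted p = 0.00289) and Foxq1 by 0.64 (adjusted p = 0.00421), so all 4 of these genes on chromosome 13 were higher in IncPBF lungs.

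Gm17501 starts 331 bases from Cyr61, a secreted matrix-associated protein gene of the early response to mechanical and growth stimuli. It read 3.21, 4.28, 4.75, 4.98 and 4.54 FPKM in the IncPBF lungs and 2.30, 2.57, 2.54, 2.38 and 1.75 in the sham lungs, with no overlap (0.88 ± 0.13, adjusted p = 0.000676). Cyr61 had almost the same log2 fold change, 0.89, but varied from lung to lung at 83.6 ± 45.8 against 42.4 ± 14.9 FPKM and did not pass the test (adjusted p = 0.0601).

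Smaller rises without overlap came from Gm27010 (0.60, adjusted p = 0.00316), which lies in the body of Dleu2, and Gm14005 (0.59, adjusted p = 0.00614), which shares exons with Gm14012 and Gm14009. Bcl2l11, the nearest protein-coding gene to Gm14005, was lower by −0.24 (adjusted p = 0.0405).

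**Figure D3:**
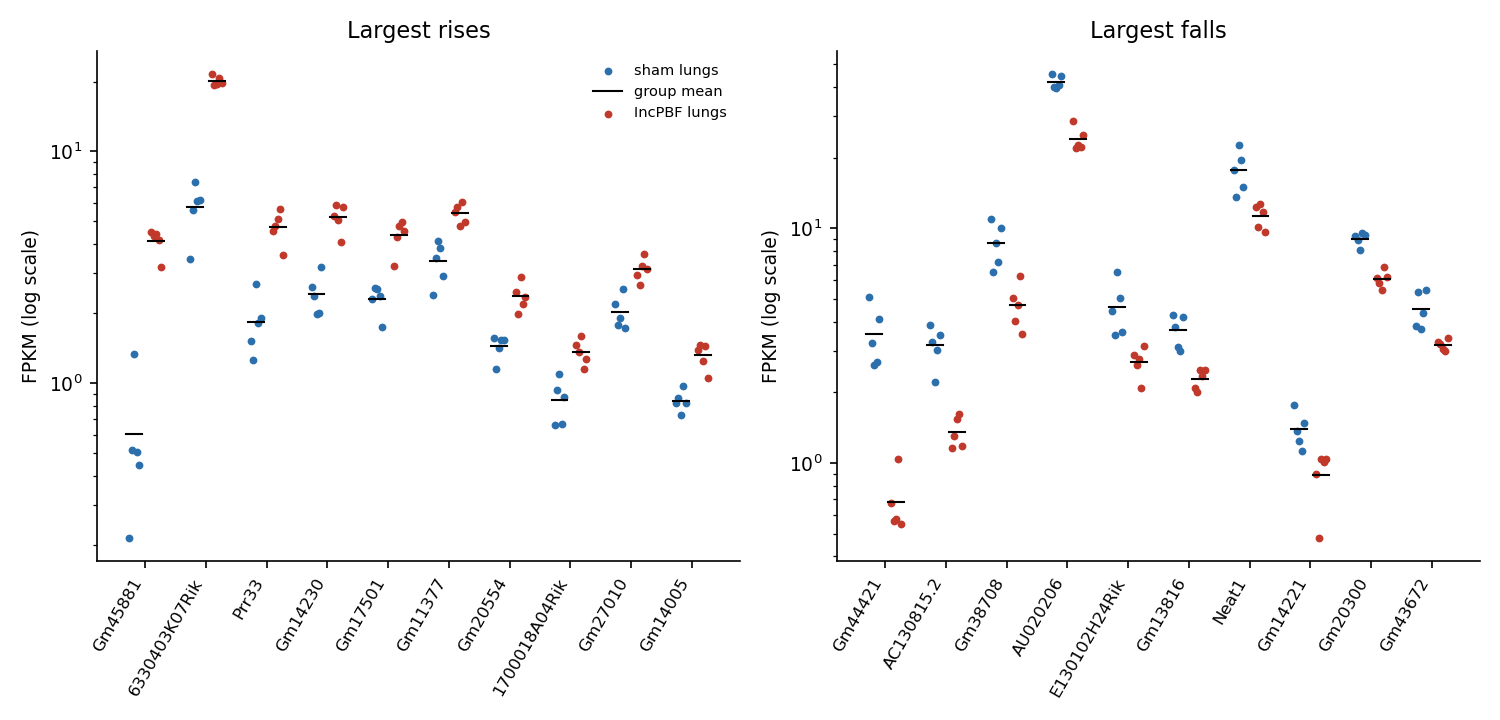
FPKM of the 10 long noncoding RNA genes with the largest rises and the 10 with the largest falls (vertical, log scale), each point a lung, sham in blue and IncPBF in red, with a line at each group mean. In each of the 20 genes the groups do not overlap, as the rule that picked them requires, from Gm45881 (4.11 against 0.603 FPKM) to Gm43672 (3.20 against 4.54 FPKM).

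Gm44421 had the largest fall (chr6:90478466-90479686, plus strand). It read 0.678, 0.568, 0.576, 1.04 and 0.552 FPKM in the IncPBF lungs and 5.11, 3.26, 2.61, 2.70 and 4.09 in the sham lungs. Even the highest IncPBF lung, number 4, was well below the lowest sham lung. The log2 fold change was −2.21 ± 0.21 (adjusted p = 4.46e-05), on 13 to 22 fragments per IncPBF lung and 60 to 112 per sham lung. Klf15, a zinc-finger transcription factor known for its glucocorticoid response, lies 3228 bases away on the same strand. It fell by nearly the same amount, −2.07, from 19.7 ± 5.54 to 4.56 ± 1.21 FPKM (adjusted p = 7.78e-05).

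AU020206, whose promoter window is printed above, was the most abundant of the falls without overlap. It read 28.6, 22.1, 22.6, 22.1 and 24.9 FPKM in the IncPBF lungs and 45.5, 40.1, 39.6, 40.7 and 44.5 in the sham lungs. The highest IncPBF lung stayed well below the lowest sham lung, and the fall of −0.81 ± 0.08 had an adjusted p of 4.56e-05. Akap13, the nearest protein-coding gene at 14429 bases on the other strand, was lower by −0.58 (adjusted p = 0.00955).

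AC130815.2 read 1.16, 1.30, 1.54, 1.61 and 1.18 FPKM in the IncPBF lungs and 3.88, 3.26, 2.22, 3.03 and 3.51 in the sham lungs (−1.16 ± 0.15, adjusted p = 0.000254). Its neighbour Ppp1r2, an inhibitor of protein phosphatase 1, fell by −0.46 (adjusted p = 0.000195). Gm38708 starts 3210 bases from Gata2, a transcription factor of endothelial and blood cells. It read 5.04, 4.02, 4.72, 6.25 and 3.56 FPKM in the IncPBF lungs and 10.9, 6.51, 8.63, 7.19 and 10.01 in the sham lungs, and the fall of −0.86 (adjusted p = 0.00306) stood beside −0.92 for Gata2 (adjusted p = 0.000122). Both genes of each pair were lower in IncPBF lungs.

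Of 8 endothelial marker genes, 5 were lower and 0 higher in IncPBF lungs, with a summed level of 1118 to 1222 FPKM against 1230 to 1535, and of 7 erythroid marker genes, 5 were lower, with 253 to 1931 against 1466 to 2450 FPKM. Of 10 alveolar epithelial markers, 8 were lower (median −0.52), and of 9 smooth muscle and fibroblast markers, 3 were higher and 1 lower. Over all genes tested, 16.1% were higher and 16.2% lower. The part of these cell types in the changes of single long noncoding genes was not tested.

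E130102H24Rik contains the precursor of miR-101a on chromosome 4. The mature forms from RefSeq on GRCm38.p6 are shown with the seed, bases 2 to 8, in capitals, because this is the only gene among the largest changes that hosts a microRNA. The microRNAs themselves were not measured here.
miR-101a-3p: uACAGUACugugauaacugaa
miR-101a-5p: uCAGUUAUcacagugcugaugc

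They lie at chr4:101346957-101346977 and chr4:101346993-101347014 on the minus strand. The host gene read 2.87, 2.62, 2.77, 2.08 and 3.15 FPKM in the IncPBF lungs and 4.43, 3.53, 6.54, 5.07 and 3.63 in the sham lungs, with no overlap and a fall of −0.74 ± 0.17 (adjusted p = 0.00649).

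The other falls without overlap were smaller. Gm13816 fell by −0.65 (adjusted p = 0.00171) and its nearest coding gene Chst1 by −0.42, at a distance of 126980 bases. Gm20300 fell by −0.56 (adjusted p = 0.000201) from 9.05 ± 0.601 to 6.10 ± 0.502 FPKM, and Gm43672 by −0.48 (adjusted p = 0.00786). Gm14221 fell by −0.62 with an adjusted p of 0.0382 that rose above 0.05 without IncPBF lung 1 or 4 or sham lung 1, 2 or 5 (0.0502 to 0.0923). Dubr, an RNA known from muscle cell differentiation, had one of the tightest distributions, with 7.82 to 8.74 FPKM in IncPBF and 9.20 to 11.1 in sham lungs (−0.31 ± 0.06, adjusted p = 0.00326).

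A further 13 genes that passed the test fell outside the rule for named genes. Of these, 6 were higher, by 0.48 to 0.94, and 7 lower, by −0.57 to −0.20.

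The changes of the long noncoding genes and of their nearest protein-coding genes were set side by side for all pairs in which both were tested. Over 158 pairs the Spearman correlation of the log2 fold changes was 0.408, and over the 125 pairs with no shared exon it was 0.473. Both genes passed the test in 16 of the 125 pairs, and in 14 of them in the same direction. The long noncoding gene passed in 30 of the 125, and 32.3% of all genes tested passed, so some double calls would arise without any link. Some coding genes serve in more than 1 pair, as Zfp825 does for E430024I08Rik, Gm47467 and Gm47469, so the pairs are not all separate. For 28 pairs on the same strand with a gap under 5 kb the correlation was 0.564, for 35 pairs that start within 1 kb of each other on opposite strands 0.308, and for 23 pairs with a gap over 50 kb 0.259. These are correlations across genes of the same 10 libraries, given as a description.

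**Figure D4:**
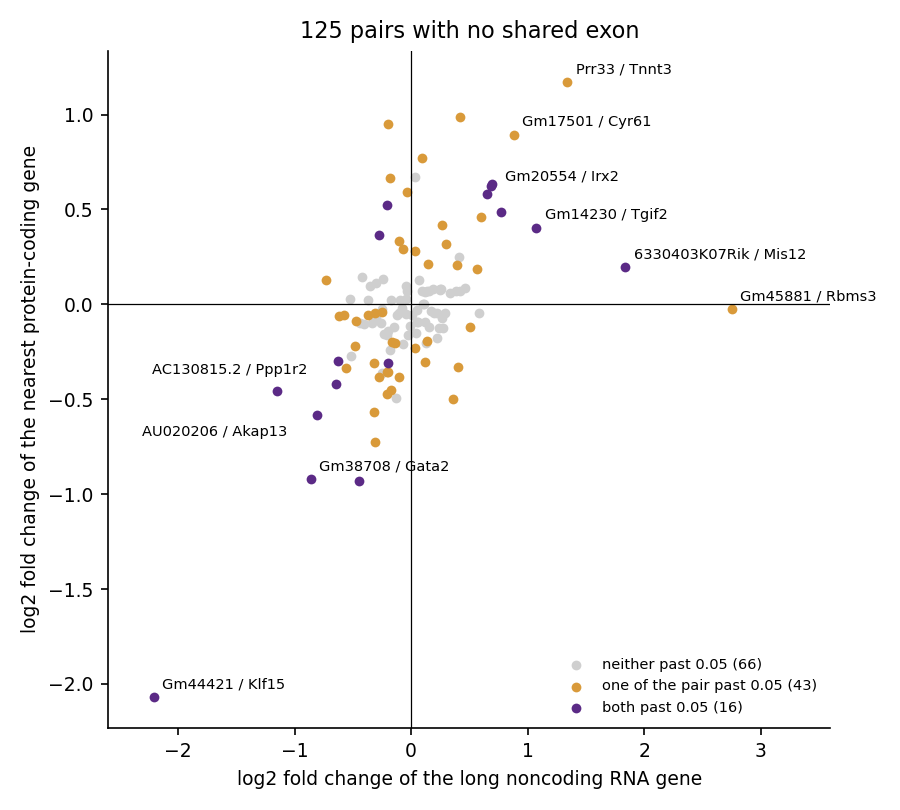
Log2 fold change of each long noncoding RNA gene (horizontal) against that of its nearest protein-coding gene (vertical) for the 125 pairs with no shared exon, coloured by how many of the pair had an adjusted p under 0.05. Gm44421 and Klf15 stand apart at −2.21 and −2.07, Gm38708 and Gata2 lie at −0.86 and −0.92, and Gm45881 and 6330403K07Rik rose with little change in the neighbour.

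Among the genes that host small nucleolar RNAs, the guides of ribosomal RNA modification, 13 of the 19 listed were tested, and 7 of those were higher and 0 lower, with a median log2 fold change of 0.36, where 16.1% of all genes tested were higher. The list runs over all biotypes, and 6 of its genes belong to the 187. Snhg6, which contains Snord87, read 8.08, 7.26, 6.75, 8.04 and 7.65 FPKM in the IncPBF lungs and 4.18, 6.07, 5.56, 7.44 and 4.26 in the sham lungs, so that sham lung 4 overlapped the IncPBF range (0.48 ± 0.14, adjusted p = 0.0248). It shares exon sequence with Mcmdc2, which itself was near 0. Snhg12, which contains 5 small nucleolar RNA genes, read 2.76, 2.89, 2.34, 2.87 and 2.77 FPKM against 1.79, 1.79, 2.48, 2.53 and 1.79 (0.39 ± 0.12, adjusted p = 0.0296).

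Both passed the test narrowly. Without IncPBF lung 1 or 4 or sham lung 1 or 5 the adjusted p of each was above 0.05, and for Snhg12 also without IncPBF lung 2 or 5 or sham lung 2. The log2 fold change of Epb41l4aos was 0.36 ± 0.14 (adjusted p = 0.0752), and Snhg18, Snhg10 and Snhg20 had 0.16, 0.15 and −0.03. Outside the 187, Snhg17, Gas5, Snhg1, Snhg5 and Zfas1 rose by 0.60, 0.49, 0.48, 0.42 and 0.34. Summed, the list reached 98.4 to 113 FPKM after IncPBF and 70.9 to 96.6 FPKM after sham surgery. The 7 higher calls became 4 without IncPBF lung 4, sham lung 1 or sham lung 5, and 0 with log2 Xist as a covariate. In that fit all 7 kept their direction, with a median log2 fold change of 0.44 against 0.48 and a median standard error of 0.22 against 0.12. The group difference then rests on IncPBF lung 1, which also helped to make the 7 calls, so this is no independent check.

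Among the genes of proteins that assemble with small nucleolar RNAs, 8 of 11 were higher and 0 lower, with a median of 0.40, where 16.1% of all genes tested were higher. Nop58 rose by 0.69, Gar1 by 0.55, Fbl, the methyltransferase of the box C/D particles, by 0.47 and Nop56 by 0.46. With log2 Xist as a covariate the group difference rests on IncPBF lung 1, which also helped to make these calls. The 8 kept their direction there, which is no independent check. Their median log2 fold change was 0.37 against 0.47, with a larger median standard error of 0.16 against 0.09.

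**Figure D5:**
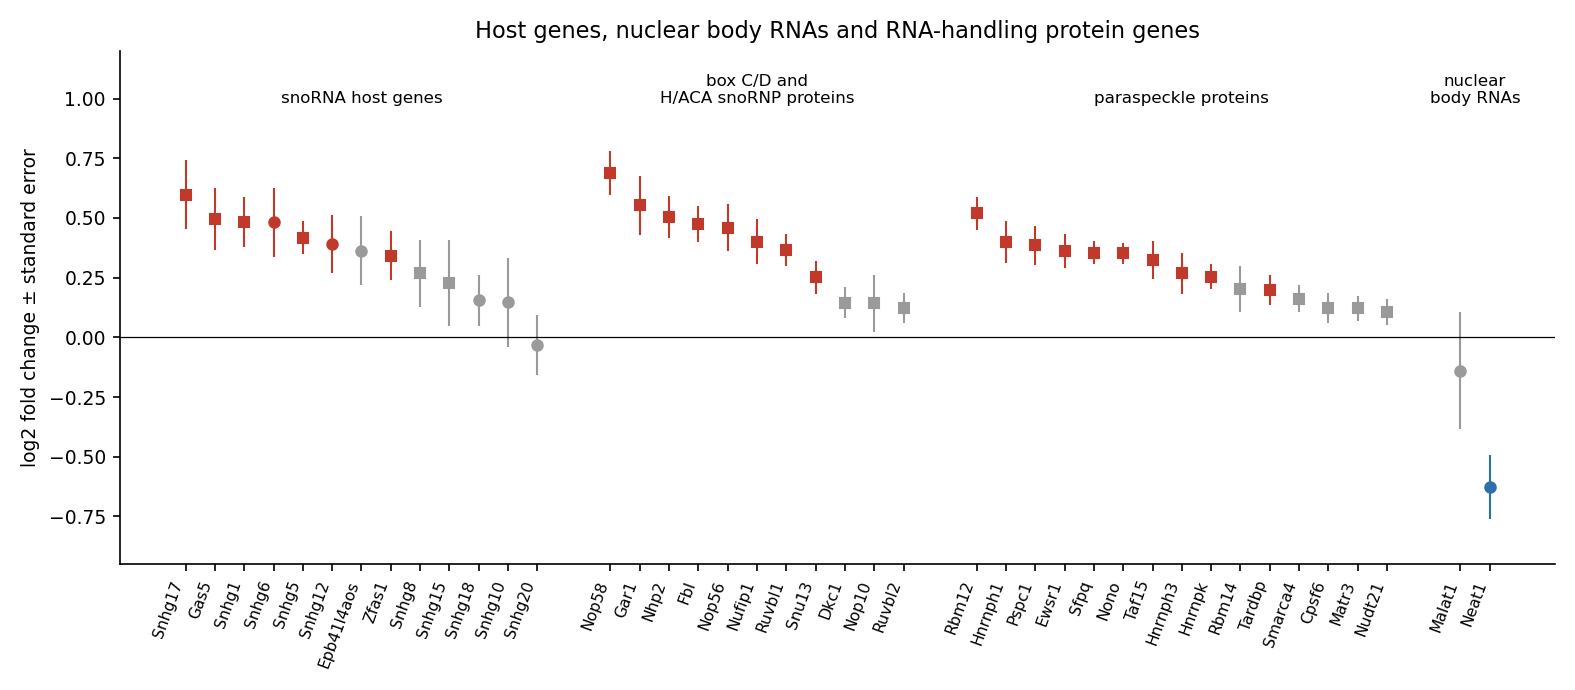
Log2 fold change of IncPBF over sham with its standard error (vertical) for the tested genes of 4 lists, where circles belong to the 187 long noncoding RNA genes and squares do not, and red and blue mark higher and lower at an adjusted p under 0.05. The small nucleolar RNA hosts have 7 genes higher, the particle proteins 8 and the paraspeckle proteins 10, while Malat1 lies at −0.14 and Neat1 at −0.63.

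Of 7 tested genes known as microRNA hosts, 3 were higher and 0 lower, where 16.1% of all genes tested were higher. None of the 3 is among the 187. The 3 hosts of this list among the 187 did not pass the test. Mir17hg, host of the miR-17 to miR-92 cluster, read 2.36 ± 0.182 FPKM in IncPBF and 1.80 ± 0.436 in sham lungs (0.40 ± 0.15, adjusted p = 0.0589), Mir142hg of blood cells had a log2 fold change of 0.03, and Carmn of smooth muscle had 0.24. Genes of microRNA processing had 2 higher and 1 lower of 13, beside 16.1% higher and 16.2% lower over all genes tested.

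By the coordinates of the table, 8 of the 187 contain a small nucleolar RNA gene, of which 2 were higher, and 11 contain a microRNA gene, of which Dubr and E130102H24Rik were lower. These shares, 25% and 18.2%, stand beside 16.1% higher and 16.2% lower over all genes tested. Those not yet named that did not pass the test were Gm27028 (−0.27), 6720427I07Rik (0.01), Smkr-ps (−0.30), 2900076A07Rik (0.00), Gm26671 (0.24) and Gm47682 (−0.10), in log2 fold change.

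Of the remaining lists, growth arrest and genome stability RNAs had 2 higher and 1 lower of 5, RNAs beside developmental regulators had 1 higher and 1 lower (Dubr) of 7, imprinted RNAs had Peg13 lower of 3, and the 4 immune RNAs had their lowest adjusted p at 0.108 (AI662270). Genes of nonsense-mediated decay had 3 higher and 2 lower of 14. All these counts stand beside 16.1% higher and 16.2% lower over all genes tested.

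Sex-linked expression moved with the groups, so the same fit was repeated with log2 Xist as a covariate, where the group difference rests on IncPBF lung 1. Of the 187 genes 7 then passed the test, 3 higher and 4 lower, and all 7 were among the 37 of the fit without it. All 37 kept their direction, with a median size of the log2 fold change of 0.56 against 0.62 and a median standard error of 0.24 against 0.13. They were Gm45881 (2.80), 6330403K07Rik (1.90) and Gm14230 (1.14), which were higher, and Gm44421 (−2.16), AC130815.2 (−1.33), AU020206 (−0.55) and Gm20300 (−0.54), which were lower. IncPBF lung 1, the 1 IncPBF lung with the Y-linked pattern, lay beyond all sham lungs in the direction of the group difference for 36 of the 37 genes, against 29 to 35 for the other IncPBF lungs. The 37 calls themselves include this lung.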

How the data were processed

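Total RNA of 10 mouse lungs was sequenced in bulk by the authors from NEBNext libraries, and the authors deposited 1 table of FPKM with the length of each gene. The submitters' processing notes name Bowtie 0.12.2 and mouse build GRCm38 among the builds; the counting software and its strand setting are not given in the sources used here. FPKM times length came out as whole fragments for 100% of the values (tolerance 0.01). Coordinates were the same as in GENCODE M21 for 185 of the 187 genes. Genes with a mean of at least 0.5 FPKM (15388) were fitted on log2(FPKM + 0.1) with limma 3.58.1 in R 4.3.3 (lmFit, eBayes with trend), IncPBF against sham, without covariates, and p-values were adjusted by Benjamini-Hochberg over all genes tested at a threshold of 0.05. Fold changes on this scale understate those of low genes. All adjusted p-values are from limma. Nothing says whether pups shared a litter, so p-values measure only the spread between these lungs. In an exact two-sided permutation over the 252 assignments of lungs the smallest p is 0.00794, which genes picked for groups without overlap reach by construction, so it adds no support to them. Named were genes of at least 20 FPKM, the 10 strongest changes in each direction among genes called with no overlap of the groups, genes in lists by role, hosts of small RNAs, and the nearest protein-coding genes. The members and lists were chosen with earlier results of these data known, and no list was tested as a set. A gene of 1 list is not reported here and was left out of its counts. Near-copies were found with BLAST 2.17.0 (at least 97% identity over at least 50% of the transcript). Tables were joined in pandas 2.3.3 under Python 3.11.15 and plotted with matplotlib 3.10.9. The fit was tested on simulated data. Alternatives were other pseudocounts, filters, scalings, thresholds and biotypes, the replicate number as a block, log2 Xist as a covariate, limma-voom on the recovered fragments and each lung left out. Added after seeing the data were log2 Scgb1a1 as a covariate and leaving out both IncPBF lung 1 and sham lung 5.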

Additional observations from a re-analysis of the deposited data

Results flagged for a closer look

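Within the 84 groups of 5 lungs formed by the 42 named genes, 7 held a lung whose distance to the nearest other lung exceeded the 95% limit of Dixon's test, where chance alone gives about 1 in 20. In IncPBF lung 5, Malat1 was lowest at 57.37 FPKM (90.3 to 99.2 in the other 4), Gm10076 was highest at 58.95 (21.3 to 27.2) and Gm45881 was lowest at 3.167 (4.15 to 4.50). In sham lung 5, the lung low in Scgb1a1, Epb41l4aos was lowest at 6.678 (10.8 to 11.5) and Gm17501 at 1.753 (2.30 to 2.57). Snhg12 was lowest in IncPBF lung 3 at 2.344 (2.76 to 2.89), and Gm14221 in IncPBF lung 2 at 0.4801 (0.900 to 1.04). The levels printed here are FPKM, and their causes were not tested.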

How the results depend on the processing

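The 18 higher and 19 lower genes (37 in all) became 3, 4 and 7 with log2 Xist as a covariate, with 33 genes at an unadjusted p under 0.05; all 37 kept their direction, at a median size of 0.56 against 0.62 and a median standard error of 0.24 against 0.13. Without a filter on low values 12 were lower, since more genes entered the adjustment, and with an equal total on genes 27 were higher and 11 lower. Changing the set itself gave 29 lower and 56 in all of 329 at a mean of at least 0.5 FPKM, 5, 8 and 13 of 31 at 5 FPKM, 46, 47 and 93 of 506 over all long noncoding biotypes, and 10 higher of 119 genes that overlap no other gene. Leaving out each lung gave 13 to 23 higher, 12 to 20 lower and 27 to 38 in all, with 12 lower without IncPBF lung 4. None of the 37 changed sign in the fits of all 187 genes under other settings or with lungs left out. The replicate numbers did not pair the lungs (correlations of same-numbered lungs from −0.0675 to 0.0854, own number highest for 2 of 5), and with the replicate number as a block 35 genes passed, 31 of them among the 37. Limma-voom on fragments gave 35 (33 shared), the Scgb1a1 covariate 35 (32 shared), and leaving out both IncPBF lung 1 and sham lung 5 gave 30 (25 shared). Low counts limit the precision, since only 38 genes had 100 fragments in every lung. Causes were not tested.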
